A study of Mus musculus with 6 samples.

Results

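Major histocompatibility complex (MHC) class II genes were examined in brown adipose tissue (BAT) of mice that lack soluble ST2 (sST2). The genes were 9 of the 35976 rows of the count table, chosen by symbol: the chain genes H2-Aa, H2-Ab1 and H2-Eb1, the invariant chain gene Cd74, the transactivator gene Ciita, and H2-DMa, H2-DMb1, H2-Oa and H2-Ob, whose products load peptide or restrain loading. All 9 have a row, and 8 passed the expression filter and were tested among 14542 genes; H2-Oa did not. RNA-seq libraries came from BAT of 3 sST2-KO mice and 3 WT littermates on a C57BL/6J background, males 10 weeks old. The sST2-KO mice carry a homozygous CRISPR deletion in Il1rl1, the gene of the IL-33 receptor, which removes the intron with the stop codon of the soluble form in every cell, and heterozygous parents gave both groups. All 6 mice, WT included, had their BAT sympathetic nerves cut, were kept at 30 °C for 7 days and were then exposed to 10 °C for 8 h, so no library shows innervated or unexposed BAT. The comparison asked whether the class II genes differed between sST2-KO and WT BAT under these conditions.

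MHC class II molecules are pairs of an alpha and a beta chain that hold peptides from ingested proteins at the cell surface, where CD4 T cells read them. The invariant chain, CD74, guides new class II molecules to endosomes, where cathepsins degrade it and H2-DM exchanges its last fragment for a peptide, a step that H2-O restrains. CIITA, which is induced by interferon gamma in many cells, does not bind DNA itself but joins RFX and NF-Y proteins on the X and Y boxes of class II promoters. In adipose tissue, macrophages, dendritic cells and B cells are the best known carriers of class II, and adipocytes can also express it.

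Of the 9 genes, 7 lie within the MHC on chromosome 17 of GRCm39, where the class II genes followed here, the related H2-DMb2, H2-Eb2 and H2-Ea included, run from 34311314 to 34563618. Ciita and Cd74 lie on other chromosomes. The X and Y boxes were looked for in RefSeq promoters (table build GRCm38.p6, each matched to a single place in GRCm39), as AGCAAC for the core of the X box and CCAAT for the Y box, on both strands, in the 250 bases before each start. The RefSeq table gave 7 promoters for 6 of the 9 genes; H2-Ab1, Cd74 and Ciita have no entry in it. A promoter was taken to hold both boxes where the matches start within 50 bases of each other and do not overlap. Both boxes were found in 3 of the 7 promoters, those of H2-Eb1, H2-Oa and H2-Ob, and in 1.77% of all 32851 promoters. The Y box letters alone were in 6 of the 7 and in 33.8% of all promoters, and the X box letters in 3 of the 7 and in 12.2%.

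The stretches from 110 to 31 bases before the start are printed for these 3 promoters and for H2-Aa. They show the letters of both boxes, and a promoter where the exact search found those of the Y box alone. Capitals mark AGCAAC, and CCAAT, which on these strands mostly reads ATTGG. In GRCm39 they are chr17:34524731-34524810 (plus strand) for H2-Eb1, chr17:34457769-34457848 (plus strand) for H2-Ob, chr17:34311243-34311322 (plus strand) for H2-Oa and chr17:34506828-34506907 (minus strand) for H2-Aa.
H2-Eb1: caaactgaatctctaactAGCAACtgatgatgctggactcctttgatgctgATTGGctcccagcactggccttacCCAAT
H2-Ob: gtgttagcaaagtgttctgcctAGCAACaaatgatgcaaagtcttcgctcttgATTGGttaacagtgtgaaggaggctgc
H2-Oa: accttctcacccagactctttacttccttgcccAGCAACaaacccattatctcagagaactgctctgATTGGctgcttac
H2-Aa: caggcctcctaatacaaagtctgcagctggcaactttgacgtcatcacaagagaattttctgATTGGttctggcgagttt

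In the 3 promoters with both boxes, the starts of the boxes are 33 bases apart in H2-Eb1, 31 in H2-Ob and 34 in H2-Oa. This arrangement is shared by H2-Eb1, one of the abundant class II genes in BAT, and by H2-Oa, the least abundant of the 9 by CPM. H2-Aa has the Y box letters at position -48 from its start and H2-DMb1 has them at -61, with no AGCAAC in either window. Of the 2 promoters listed for H2-DMa, 1 has CCAAT at -198 and the other has no match. The H2-Aa stretch holds GGCAAC and the H2-DMb1 window holds AGTAAC, each 1 letter from AGCAAC. An exact search misses such variants, so the lack of a match does not show that a promoter lacks the X box. A match describes letters only, and factor binding was not measured.

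**Figure D1:**
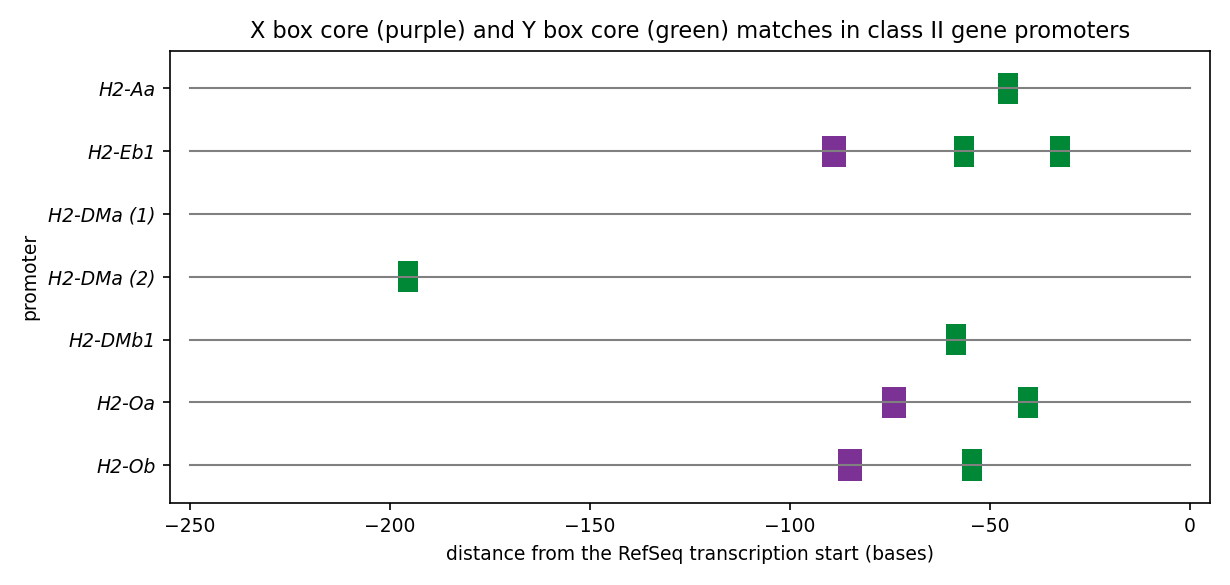
Matches to the X box core (purple) and to the Y box core (green) in the 7 RefSeq promoters of the class II genes, by distance in bases from the transcription start, with the 2 promoters of H2-DMa on lines of their own. The pair lies within 100 bases of the start in H2-Eb1, H2-Oa and H2-Ob.

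The libraries held 8159442 to 12874809 counts, and mitochondrial genes took 6.80% of the counts in sST2-KO 3 and 11.8% to 16.6% in the other 5 libraries. Il1rl1 had 19, 19 and 6 counts in WT 1 to 3 and 55, 69 and 142 in sST2-KO 1 to 3; these counts sum both receptor forms and so do not check the deletion. Brown adipocyte markers were present in every library (summed level 9682 to 17628 CPM, counts scaled to a common library size, in WT and 892 to 3001 CPM in sST2-KO), and all 8 were lower in every sST2-KO library than in any WT library. Of these, 7 were called (Ucp1 among them, Plin1 not), 2 without WT 2 and 1 without WT 3. Skeletal muscle markers summed to 1278, 21.2 and 6.41 CPM in WT 1 to 3. In sST2-KO 1 to 3 they summed to 6642, 3571 and 15327 CPM, and all 10 were higher without overlap. Over all genes tested, 21.8% were higher and 19.7% were lower in sST2-KO without overlap. Of the 10 muscle markers, 1 was called with all libraries and 10 were called without WT 1. The part of muscle in the results below was not tested. These CPM are scaled by edgeR's TMM factors. Calls required a change over 2-fold together with an adjusted p under 0.05 (edgeR's quasi-likelihood test, Benjamini-Hochberg over all 14542 genes), and 9.04% of the genes were called as higher and 7.10% as lower in sST2-KO.

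Against that background, 0 of the 8 class II genes tested were called in either direction. All 8 had a positive log2 fold change (sST2-KO minus WT), from 0.49 to 1.43 with a median of 0.70, where the median over all genes was 0.03. At an unadjusted p under 0.05, edgeR gave 2 of the 8 as higher, H2-DMb1 and H2-Ob. Over all 14542 genes tested, 2846 passed this limit as higher and 2423 as lower. By single libraries, sST2-KO 3 was the highest of the 6 for 9 of 9 genes and sST2-KO 1 was the lowest for 7 of 9, so that the WT libraries lay inside the range of the sST2-KO libraries for these 7. For 1 of the 8 genes, H2-Ob, all sST2-KO libraries lay above all WT libraries, a pattern that 21.8% of all genes showed (19.7% showed it in the other direction). Together the 9 genes took 0.111% to 0.170% of the counts in WT and 0.099%, 0.209% and 0.472% in sST2-KO 1, 2 and 3. RNA from whole tissue cannot tell more cells that carry class II from more class II RNA per cell.

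**Figure D2:**
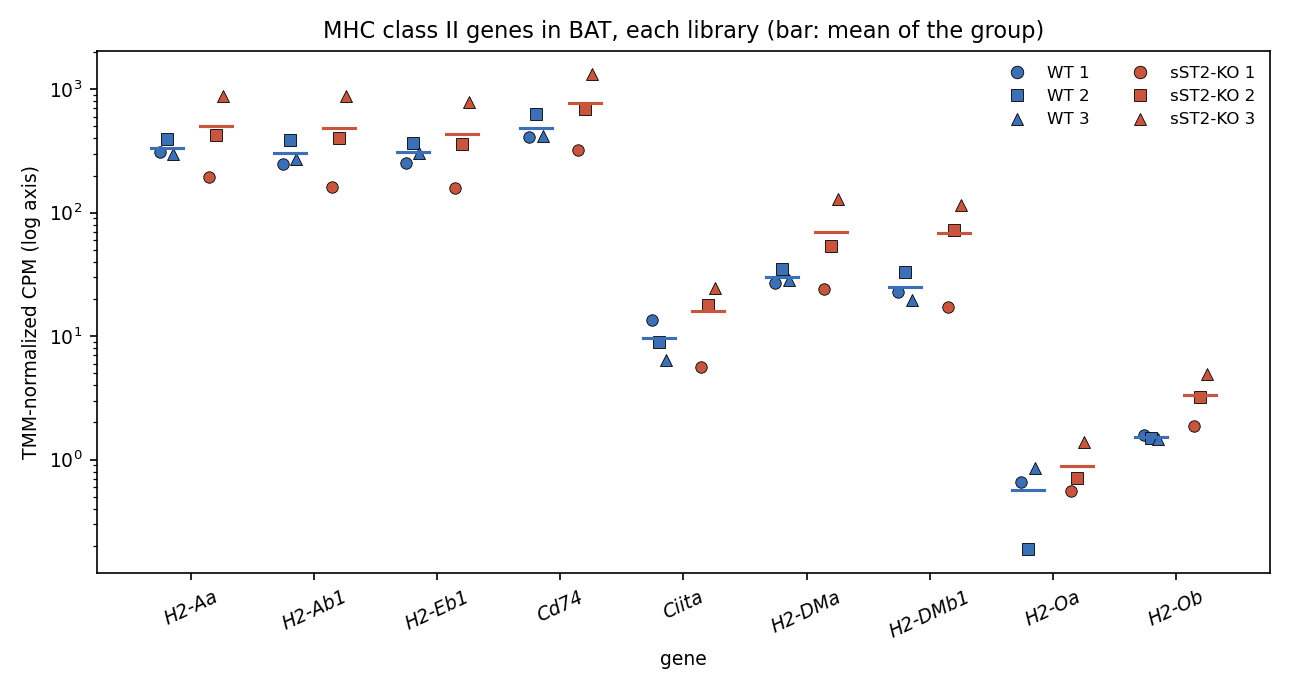
TMM-normalized CPM (log axis) of the 9 class II genes in each of the 6 libraries, with a bar at the mean of each group. The sST2-KO libraries spread around the WT libraries for most genes, with sST2-KO 3 at the top for all 9 and sST2-KO 1 at the bottom for 7.

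Per kilobase of canonical transcript, Cd74 had the highest level in WT BAT, with 339.55 ± 84.3 CPM per kb (SD, n = 3), followed by H2-Aa with 296 ± 48.4, H2-Ab1 with 251 ± 63.1 and H2-Eb1 with 182 ± 33.6. These 4 neighbors in the order differed by less than the sum of their SDs. H2-DMa (26.1 ± 3.75) and H2-DMb1 (17.9 ± 4.98) came next and lay within their spread of each other, well below the chains. Ciita followed with 1.29 ± 0.481 CPM per kb, and H2-Ob (0.562 ± 0.0203) and H2-Oa (0.47 ± 0.286) were last and not separated from each other. Cd74 was also first in sST2-KO, with 542 ± 352 CPM per kb. With the union of all annotated exons as the length, Cd74 kept the first place and Ciita the seventh, while the order within the chains, within H2-DM and within H2-O changed. The chains and Cd74 together held 92.7% to 95.8% of the counts of the 9 genes in each library.

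The classical chain genes encode the alpha chain (H2-Aa) and beta chain (H2-Ab1) of the I-A molecule and the beta chain (H2-Eb1) of the I-E molecule. H2-Aa had 308, 397 and 297 CPM in WT 1 to 3 and 196, 427 and 886 CPM in sST2-KO 1 to 3. H2-Ab1 had 249, 392 and 273 CPM in WT and 162, 406 and 885 CPM in sST2-KO. H2-Eb1 had 254, 368 and 305 CPM in WT and 159, 357 and 791 CPM in sST2-KO. In all 3 genes sST2-KO 1 was below every WT library, sST2-KO 2 was near WT 2, and sST2-KO 3 was above every WT library. Their log2 fold changes were 0.59 (SE 0.50), 0.67 (SE 0.55) and 0.49 (SE 0.52), with adjusted p of 0.43, 0.422 and 0.534 by edgeR's quasi-likelihood test. The direction rested on 1 library: without sST2-KO 3 the 3 values were -0.10, -0.10 and -0.26. The 95% interval of H2-Aa, from -0.56 to 1.74, includes changes beyond 2-fold, so that these data do not bound the difference tightly.

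The 3 chains stood in like proportions in both groups. H2-Ab1 had 80.7 to 98.6 counts per 100 counts of H2-Aa in WT and 82.5 to 99.9 in sST2-KO, and H2-Eb1 had 82.5 to 103 in WT and 81.1 to 89.2 in sST2-KO. The groups overlapped in both ratios. Exons of H2-Aa and H2-Eb1 overlap on opposite strands by 118 bases. H2-Ea, the gene of the I-E alpha chain, had 0 counts in all 6 libraries; C57BL/6 mice, which carry the b haplotype, are known for the lack of this transcript.

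Cd74, the invariant chain gene on chromosome 18 (60936899 to 60945731 of GRCm39), had 414, 625 and 419 CPM in WT 1 to 3 and 322, 686 and 1317 CPM in sST2-KO 1 to 3. As in the chains, sST2-KO 1 was lowest and sST2-KO 3 highest. Its log2 fold change was 0.67 (SE 0.49, adjusted p = 0.358 by edgeR's quasi-likelihood test), and without sST2-KO 3 it was 0.05. Cd74 stood at 51.0, 54.1 and 47.8 counts per 100 counts of the summed chains H2-Aa, H2-Ab1 and H2-Eb1 in WT, and at 62.3, 57.7 and 51.4 in sST2-KO, where the lowest value lay inside the WT range.

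Ciita, on chromosome 16 (10297923 to 10347694 of GRCm39), encodes the transactivator on which class II transcription depends. It had 13.5, 9.05 and 6.41 CPM in WT and 5.65, 17.8 and 24.7 CPM in sST2-KO. Again sST2-KO 1 was the lowest of the 6 libraries and the groups overlapped. The log2 fold change was 0.72 (SE 0.53, adjusted p = 0.363 by edgeR's quasi-likelihood test), and 0.26 without sST2-KO 3. Exons of Ciita overlap 633 bases of Dexi on the opposite strand, and whether the counting used strand is not stated.

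H2-DMa and H2-DMb1, which encode the chains of the peptide exchanger H2-DM, had the largest log2 fold changes of the 8 genes with all libraries in the fit. H2-DMa had 26.8, 35.0 and 28.5 CPM in WT 1 to 3 and 24.1, 54.0 and 130 CPM in sST2-KO 1 to 3. H2-DMb1 had 22.8, 33.1 and 19.7 CPM in WT and 17.4, 72.3 and 114 CPM in sST2-KO. In both genes sST2-KO 2 and 3 were above every WT library and sST2-KO 1 was below every one. The log2 fold changes were 1.20 (SE 0.54, 95% interval -0.05 to 2.45) for H2-DMa and 1.43 (SE 0.59, 95% interval 0.05 to 2.81) for H2-DMb1, with adjusted p of 0.15 and 0.127 by edgeR's quasi-likelihood test. Without sST2-KO 1 both were called, at 1.61 (adjusted p = 0.035) and 1.89 (adjusted p = 0.0236); leaving out any other library called neither. Without sST2-KO 3 they fell to 0.37 (adjusted p = 0.532) and 0.83 (adjusted p = 0.367). Of the windows of 75 bases in H2-DMb1 transcripts, 15.84% are also in H2-DMb2, a second H2-DM beta gene, so counts could be split between these genes. H2-DMb2 itself had 0.84, 1.7 and 0.74 CPM in WT and 1.32, 4.63 and 4.05 CPM in sST2-KO (log2 fold change 1.57, SE 0.58, adjusted p = 0.0941 by edgeR's quasi-likelihood test), and was called at 1.96 (adjusted p = 0.0384) without sST2-KO 1. On the opposite strand, exons of H2-DMa overlap 510 bases of Brd2, and exons of H2-DMb1 overlap 285 bases of Gm64535.

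H2-Oa and H2-Ob, which encode the chains of H2-O, a brake on H2-DM that is typical of B cells, were scarce. H2-Ob had 1.59, 1.51 and 1.48 CPM in WT and 1.88, 3.20 and 4.94 CPM in sST2-KO. It was the only one of the 8 genes tested whose groups did not overlap, with 27 and 50 counts behind the values of sST2-KO 2 and 3. The log2 fold change was 1.12 (SE 0.43, adjusted p = 0.103 by edgeR's quasi-likelihood test). Without sST2-KO 1 it was called at 1.41 (adjusted p = 0.0498), and without sST2-KO 3 it was 0.71 (adjusted p = 0.316). H2-Oa had 7, 2 and 7 counts in WT 1 to 3 and 8, 6 and 14 in sST2-KO 1 to 3, too few for the test. Its exons overlap 396 bases of BC051537 on the opposite strand. A limit of 3 counts stands for 0.209 to 0.37 CPM in these libraries, and the 0.188 CPM of H2-Oa in WT 2 lies under it.

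The H2-DM genes were also set against the chains within each library. H2-DMa stood at 3.30, 3.02 and 3.25 counts per 100 counts of the summed chains in WT and at 4.67, 4.54 and 5.06 in sST2-KO, 1.49 times as high by the geometric means. H2-DMb1 stood at 2.81, 2.86 and 2.25 per 100 in WT and at 3.36, 6.07 and 4.47 in sST2-KO, 1.71 times as high. Both ratios were higher in all 3 sST2-KO libraries than in any WT library, sST2-KO 1 included, although sST2-KO 1 had the lowest CPM of both genes. The ratios of Cd74, Ciita, H2-Oa and H2-Ob to the chains overlapped between the groups. Thus 2 of 5 ratios of tested class II genes, H2-Oa not counted, were higher without overlap, beside 7.24% of 14539 genes set against the same chains. For groups of 3 and 3, the smallest p that exact permutation of the labels allows is 0.1 (two-sided), so no ratio could pass 0.05. With Cd74 in place of the chains as the denominator, H2-DMa still did not overlap (6.47, 5.59 and 6.80 per 100 counts of Cd74 in WT, 7.49, 7.87 and 9.85 in sST2-KO), while H2-DMb1 did, because sST2-KO 1 at 5.39 lay between WT libraries.

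**Figure D3:**
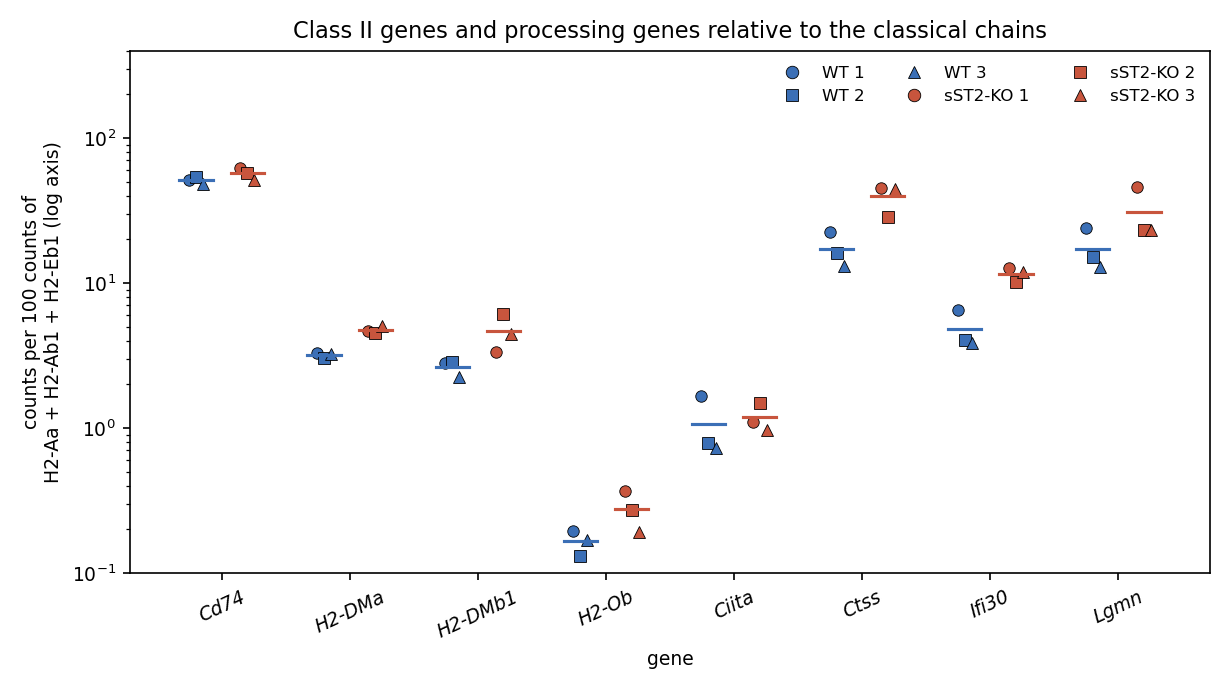
Counts of each gene per 100 counts of H2-Aa, H2-Ab1 and H2-Eb1 together (log axis) in each library, with a bar at the mean of each group. H2-DMa, H2-DMb1, Ctss and Ifi30 are higher in every sST2-KO library than in any WT library; Cd74, H2-Ob, Ciita and Lgmn overlap.

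Genes of antigen processing for class II were followed as a list of 8, of which 1 was called higher and 0 lower (median log2 fold change 0.34). Ifi30, the thiol reductase that unfolds antigens in lysosomes, had 52.8, 46.8 and 33.7 CPM in WT and 65.6, 120 and 303 CPM in sST2-KO. It rose by 1.87 (SE 0.53, adjusted p = 0.0458 by edgeR's quasi-likelihood test), a call that was lost without WT 1, WT 2, WT 3, sST2-KO 2 or sST2-KO 3, with adjusted p of up to 0.164. Ctss, the cathepsin that cuts the invariant chain in antigen-presenting cells, had 182, 188 and 115 CPM in WT and 235, 339 and 1142 CPM in sST2-KO, and did not pass the test (log2 fold change 1.82, SE 0.59, adjusted p = 0.0663), though it was called at 2.19 without sST2-KO 1. Without sST2-KO 3 it was 0.82, and its adjusted p reached 0.213 with 1 library left out. Lgmn, an asparaginyl protease, had a log2 fold change of 1.20 (adjusted p = 0.0712). In Ifi30, Ctss and Lgmn every sST2-KO library was above every WT library. Per 100 counts of the chains, Ctss stood at 13.1 to 22.5 in WT and 28.5 to 45.5 in sST2-KO, and Ifi30 at 3.84 to 6.51 in WT and 10.1 to 12.7 in sST2-KO, both without overlap. The remaining genes of the list, Ctsl, Ctsb, Ctsd, Cst3 and Sppl2a, had log2 fold changes of -0.58 to 0.45 and overlapped between the groups.

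The factors that bind class II promoters had no common direction. Of the 7 tested, 0 were called, 3 had a positive and 4 a negative log2 fold change, and the median was -0.08. Rfx5, a subunit of the RFX complex on the X box, had 16.4, 10.6 and 9.25 CPM in WT and 29.7, 18.0 and 15.8 CPM in sST2-KO (log2 fold change 0.81, SE 0.33, adjusted p = 0.124 by edgeR's quasi-likelihood test), with its highest value in sST2-KO 1, where 7 of the 9 class II genes were lowest. Rfxank, its partner, had a log2 fold change of -0.91 (adjusted p = 0.077), which was called as lower at -1.18 without WT 1. The NF-Y subunits, which bind the Y box, were at -0.08 for Nfya, 0.67 for Nfyb and -0.62 for Nfyc, with adjusted p of 0.797, 0.0609 and 0.0772.

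Interferon gamma, the main inducer of Ciita outside professional antigen-presenting cells, had the largest log2 fold change of the pathway genes. Ifng had 2, 8 and 1 counts in WT 1 to 3 and 71, 242 and 424 in sST2-KO 1 to 3, without overlap. It rose by 6.04 on the log2 scale (SE 0.98, adjusted p = 0.0147 by edgeR's quasi-likelihood test), although the counts of WT 1 and WT 3 lie under the limit of 3 and the size of the fold depends on them; without WT 3 the adjusted p was 0.065. Ifngr2 (1.65, adjusted p = 0.0221) and Jak2 (1.47, adjusted p = 0.0187), which encode a receptor chain and its kinase, also rose. Both calls were lost without WT 2 or WT 3, with adjusted p of up to 0.095 and 0.0803. Irf1, an interferon-induced transcription factor, was highest in sST2-KO 1, at 370 CPM, and had a log2 fold change of 0.73 (adjusted p = 0.124). In all, 3 of these 8 genes were called higher and 0 lower.

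On the side of the T cell, 5 of 6 genes tested were called higher and 0 lower (median log2 fold change 3.00). The CD3 chains of the T cell receptor rose by 3.13 (Cd3d, adjusted p = 0.009), 2.86 (Cd3e, adjusted p = 0.0118) and 3.62 (Cd3g, adjusted p = 0.009) by edgeR's quasi-likelihood test. Cd28, a receptor for CD80 and CD86, rose by 3.42 (adjusted p = 0.0122), and Lag3, an inhibitory receptor that binds class II, rose by 1.78 (adjusted p = 0.0143). Cd3d and Cd3g stayed called with any 1 library left out, whereas Cd3e, Cd28 and Lag3 were lost without WT 3, with adjusted p of 0.0591, 0.0563 and 0.0618. Cd4, the coreceptor that binds class II, had 1.87, 0.754 and 1.85 CPM in WT and 4.04, 3.20 and 3.16 CPM in sST2-KO, and did not pass (log2 fold change 1.23, SE 0.42, adjusted p = 0.0758). In sST2-KO 1, in which 7 of the 9 class II genes were lowest, these 6 genes were above every WT library.

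Among the genes of costimulation, Cd80 (1.68, 1.13 and 1.60 CPM in WT, 3.41, 9.26 and 23.4 CPM in sST2-KO) rose by 3.02 (SE 0.70, adjusted p = 0.0267 by edgeR's quasi-likelihood test). Cd40, the receptor through which T cells activate antigen-presenting cells, rose by 1.37 (SE 0.37, adjusted p = 0.0404). Cd80 was no longer called without WT 1, WT 2 or WT 3 (adjusted p up to 0.101), and Cd40 without any library but sST2-KO 1 (adjusted p up to 0.147). Cd86 overlapped between the groups (log2 fold change 0.69, adjusted p = 0.252). Icosl stood at 73.0 CPM in sST2-KO 1 and at 12.2 and 14.9 CPM in sST2-KO 2 and 3, against 7.18 to 9.42 CPM in WT (log2 fold change 2.03, adjusted p = 0.0714, not called). Without sST2-KO 2 it was called, at an adjusted p of 0.045. Over all 34 pathway genes tested, 11 were called higher and 0 lower, and their median log2 fold change was 0.99.

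**Figure D4:**
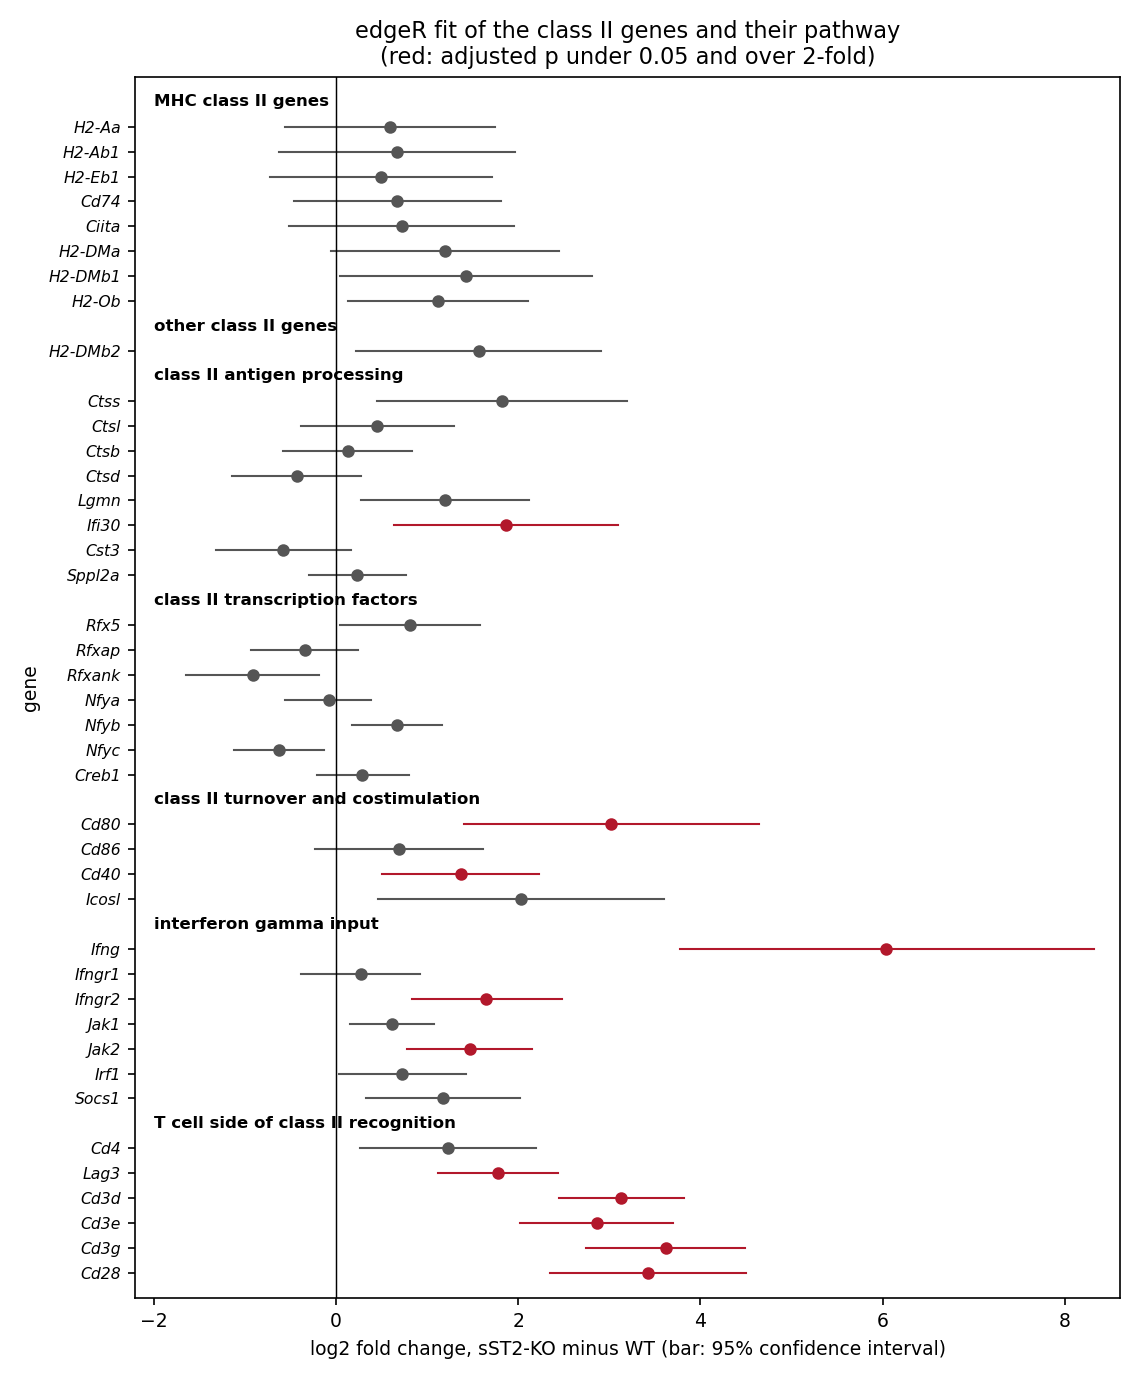
Log2 fold change (sST2-KO minus WT) with its 95% confidence interval from the edgeR fit, for the 8 class II genes tested and for the tested genes of the pathway lists, 1 of them left out. Red marks a change over 2-fold with an adjusted p under 0.05; none of the 8 class II genes is, and 5 of the 6 T cell genes are.

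Markers of the cells that could carry class II were set beside these values. Pan-leukocyte markers summed to 204 to 280 CPM in WT and 731 to 1777 CPM in sST2-KO, and 6 of 6 were called higher (median log2 fold change 2.47). Of these, Laptm5 was no longer called when any library but sST2-KO 1 was left out, and 0 of the 6 were called without WT 3. Macrophage markers summed to 896, 776 and 641 CPM in WT 1 to 3 and to 784, 929 and 2852 CPM in sST2-KO 1 to 3, so that they overlapped and sST2-KO 3 stood apart, as in the class II genes. Of the 10 macrophage markers, 9 had a positive log2 fold change and 1, Cd163, a negative one (-1.26, adjusted p = 0.127 by edgeR's quasi-likelihood test), with a median of 0.99. Only Fcgr1 was called with all libraries, and this call was lost when any library but sST2-KO 1 was left out. Adgre1 (2.05) and Cd68 (1.46) were higher in every sST2-KO library than in any WT library and were not called; without sST2-KO 3 their values were 0.99 and 0.78, while Adgre1 was called without sST2-KO 2 and Cd68 without sST2-KO 1. Dendritic cell markers summed to 118 to 140 CPM in WT and to 148, 290 and 243 CPM in sST2-KO; 4 of the 7 tested were called higher (Xcr1, Batf3, Itgax and Irf8) and 0 were called without WT 3. Zbtb46, also on this list, had 53.2, 32.9 and 50.8 CPM in WT and 26.1, 31.7 and 12.0 CPM in sST2-KO. It was lower without overlap but not called (log2 fold change -0.97, adjusted p = 0.099 by edgeR's quasi-likelihood test). Which cells its counts came from was not tested. Cd209a, too low to be tested, had 15, 10 and 10 counts in WT and 0, 5 and 3 in sST2-KO. Irf8 and Zbtb46 gave most of the summed level, and Siglech had at most 3 counts in any library. B cell markers summed to 7.92 to 14.3 CPM in WT and 11.9 to 18.8 CPM in sST2-KO, and 0 of 3 tested were called. Most of this sum came from 1 gene, Fcer2a, with 5.47 to 11.4 CPM in WT and 8.43 to 12.5 CPM in sST2-KO. Its log2 fold change was 0.13. The defining genes Ms4a1 and Pax5 had 0 to 2 counts in each WT library and 0 to 7 in each sST2-KO library. Endothelial markers, of which 1 of 6 was called higher and 1 lower, summed to 1137 to 1512 CPM in WT and 1017 to 1898 CPM in sST2-KO. The part of these cell types in the class II levels was not tested.

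Set against the macrophage markers, the chains stood at 90.5, 149 and 137 counts per 100 in WT and at 65.9, 128 and 89.8 in sST2-KO, with overlap. Set against the dendritic cell markers they stood at 579, 852 and 741 per 100 in WT and at 349, 410 and 1053 in sST2-KO, again with overlap. Set against Ptprc, the gene of CD45, they were lower in every sST2-KO library than in any WT library, at 413 to 905 per 100 against 2021 to 3753. This last pattern was shared by 91.3% of all genes and so is not particular to class II.

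**Figure D5:**
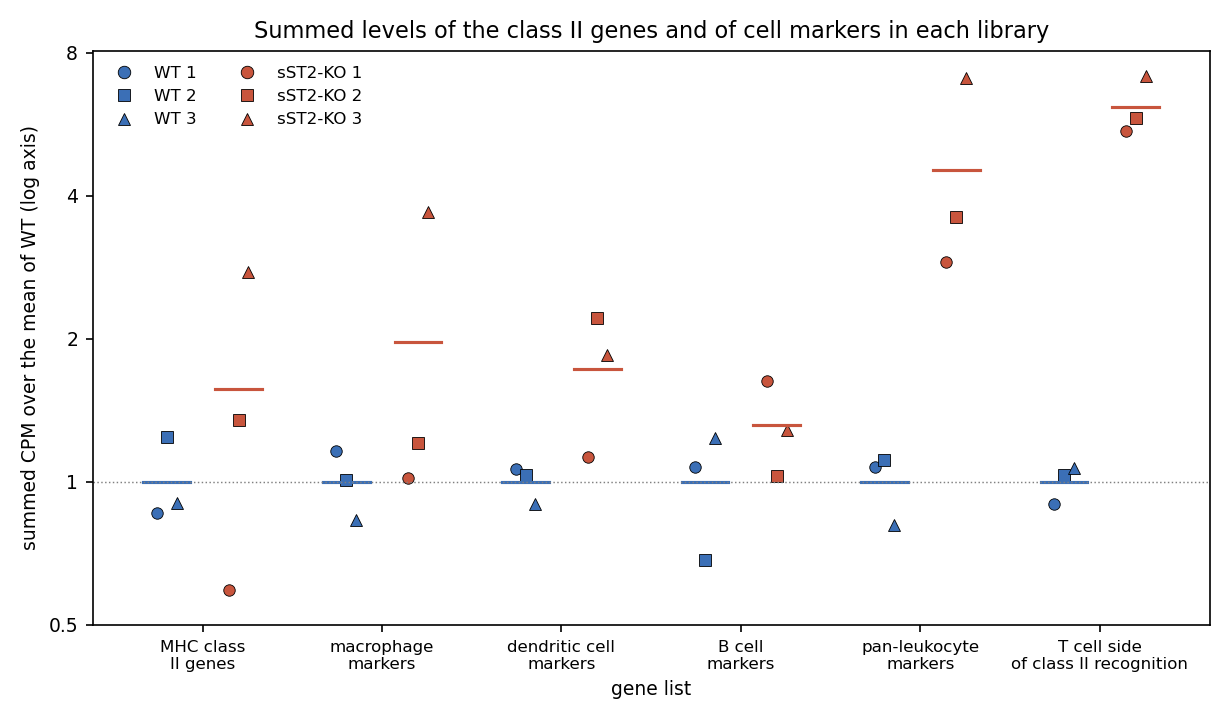
Summed CPM of the 9 class II genes and of marker lists in each library, divided by the mean of the WT libraries (log axis), with a bar at the mean of each group. The class II genes and the macrophage markers are highest in sST2-KO 3 and overlap WT, while the pan-leukocyte markers and the T cell genes are above WT in all 3 sST2-KO libraries.

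The 8 class II genes varied together over the 6 libraries, with a median Pearson correlation of log2 CPM of 0.919 over 28 pairs, from 0.715 for H2-Eb1 and H2-Ob to 0.995 for H2-Aa and H2-Ab1. These points share their libraries and depth, and 6 libraries carry few independent points. Among 11613 other genes whose log2 CPM averaged 2 or more, 137 had a correlation of at least 0.9 with the mean of the class II genes. The closest were Tnc (0.995), Selm (0.991), Il33 (0.981), Plekhn1 (0.981), Ppib (0.978), Bcat1 (0.977), Sectm1a (0.975) and Glb1 (0.973). Tnc, which encodes the matrix protein tenascin C, had 53.2, 66.5 and 48.7 CPM in WT and 35.6, 106 and 310 CPM in sST2-KO. Il33, which encodes the ligand of ST2, had 14.6, 13.7 and 9.0 CPM in WT and 8.36, 26.2 and 60.2 CPM in sST2-KO, and its log2 fold change was 1.34 (adjusted p = 0.166 by edgeR's quasi-likelihood test). As in the class II genes, sST2-KO 1 was the lowest and sST2-KO 3 the highest library for both.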

How the data were processed

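The authors extracted RNA from BAT, sequenced poly-A-selected libraries as paired-end reads, checked them with FastQC 0.12.1 (version from the submitters' processing notes), aligned them to mm39 with HISAT2 2.2.1 and counted reads per gene with htseq-count. The deposited values are these counts, not normalized; the version and strand setting of the counting are not given in the sources used here. In 27 rows a date stands in place of a gene symbol, so Marchf1 and Marchf8 were not analysed here; nor was Ighd. H2-Ea was matched by its older symbol.

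The counts were fitted by edgeR 4.0.16 (R 4.3.3) with filterByExpr, TMM factors (0.825 to 1.14), glmQLFit and glmQLFTest of sST2-KO against WT without covariates, and Benjamini-Hochberg adjustment over 14542 genes. Calls required an adjusted p under 0.05 and a change over 2-fold. The SE is the size of the log2 fold change divided by the square root of F, and intervals use the quantile of the test. The biological coefficient of variation was 0.325. The named genes were the 9 class II genes, 39 pathway genes, the markers, and the 8 genes most correlated with the class II genes. The genes and lists were chosen with earlier results of these data known. Alternatives were total counts or RLE factors in place of TMM, a stricter filter (10 or more counts in every library) or none, DESeq2 1.42.0, robust estimation, a replicate block, other fold minimums, unadjusted p and each library left out. The steps were tested on simulated data. Counts of libraries within a group differed far beyond sampling noise (chi-square over degrees of freedom 36.6 to 104). The sample labels gave each library's group. Coordinates and lengths are from the GRCm39 annotation. The results of 2 listed genes are not reported here.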

Additional observations from a re-analysis of the deposited data

How the results depend on the processing

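Under the 7 alternatives that kept all libraries (DESeq2, RLE factors, no filter, 10 or more counts in every library, total counts, robust estimation and the replicate block), 56 of 56 fitted values of the 8 class II genes kept their sign and stayed uncalled, with log2 fold changes of 0.21 to 1.69 and adjusted p of 0.054 to 0.777. Total counts moved the median of all genes from 0.034 to 0.293. At an unadjusted p under 0.05 together with a change over 2-fold, 2 class II genes and 17 pathway genes passed as higher. Over the whole table, 1868 of 14542 genes did so as higher and 1367 as lower. With 1 library left out, the log2 fold change ranged from -0.10 to 0.97 for H2-Aa, -0.10 to 1.08 for H2-Ab1, -0.26 to 0.89 for H2-Eb1, 0.05 to 1.04 for Cd74, 0.26 to 1.13 for Ciita, 0.37 to 1.61 for H2-DMa, 0.83 to 1.89 for H2-DMb1 and 0.71 to 1.41 for H2-Ob. The values of H2-Aa, H2-Ab1 and H2-Eb1 under 0 all came from leaving out sST2-KO 3. The class II genes called ranged from 0 to 3, the 3 being H2-DMa, H2-DMb1 and H2-Ob without sST2-KO 1. Pathway genes called ranged from 2 (without WT 3) to 13 as higher and from 0 to 1 as lower, and genes over the whole table from 36 (without WT 3) to 1383 as higher and from 22 to 998 as lower. These fits leave 1 group with 2 libraries, and the cause of the changes was not tested.

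The replicate numbers were not shown to pair the libraries: deviations from the group means correlated at -0.06, 0.21 and -0.31 for numbers 1, 2 and 3. With the number as a replicate block, 0 genes were called higher and 0 lower, so 0 class II genes and 0 pathway genes. With the boxes at most 30 bases apart, 0 of the 7 class II promoters and 1.13% of all promoters held both, since the starts in the 3 promoters are 31 to 34 bases apart. The ratios to the chains, Cd74 as their denominator and the canonical transcript length were chosen after the data were seen; with Cd74, 1 class II ratio of 4 (H2-DMa) in place of 2 of 5 was higher without overlap. Depth limits H2-Oa most, and a limit of 3 counts covers counting error only.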
